A study of Rattus norvegicus with 127 samples.

Results

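The comparison set 9 samples of rat pelvic floor muscle taken 3 days after a simulated birth injury (SBI) and an immediate injection of SKM against 9 samples taken 3 days after the injury with no injection, which makes 18 of the 127 samples of the series. The members were chosen by the labelled condition, and no measured value was used. SKM is a hydrogel made from the extracellular matrix of skeletal muscle. The muscle was the pubocaudalis of Sprague Dawley rats, the birth injury was common to both groups, and the labels give neither the age of the animals nor which samples came from separate animals. A p-value therefore measures the spread between samples, which the main gene fits estimated over all 18 groups of the series. Beside both groups stand 9 samples taken 3 days after injury and an immediate injection of saline, the vehicle control, 3 uninjured samples, and the day 7 groups of injury alone (8 samples) and of SKM (8 samples). The labels name no injection for the injury-alone group, so it differs from the SKM group by the injection as well as by the hydrogel.

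RNA was counted with a custom nCounter panel, in which a barcoded probe pair binds each transcript and the barcodes are counted without amplification. The probes cover immune signalling, the making of muscle, its growth and breakdown, extracellular matrix, vessels and the nerve-muscle junction. As background, an injured muscle is first entered by neutrophils and then by macrophages, which clear dead fibres. Satellite cells, the stem cells of muscle, are marked by Pax7, divide, and switch on Myf5, Myod1 and then Myog on the way to fusing into new fibres, which first carry the embryonic myosin Myh3. Fibroblasts meanwhile lay down collagen, and proteases reshape it. A matrix hydrogel is meant to act on this sequence as a scaffold, and the comparison asks how far the transcript levels with the hydrogel differ from those of injury alone at an early time. In bulk tissue, fewer cells of a type and less RNA per cell cannot be told apart.

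Within the injury-alone group, replicates 6 and 7 had the same count for every probe and differed only in the factor by which the authors had multiplied them. They were averaged and counted as 1 sample, which leaves 8 samples against 9. The factors of these 2 deposits differed by 1.43-fold, or 0.51 on the log2 scale, so that the same counts stand at 2 heights in the deposited table. Recovered total counts ran from 366294 to 1713607 in the injury-alone group and from 530033 to 1824478 in the SKM group. Totals over 1000000 were found in 7 of the 8 injury-alone samples and in 6 of the 9 SKM samples. Injury-alone replicate 8 had the lowest total, the largest factor (1 count was worth 4.28) and 5 probes at a count of 0. Several results that rest on it are therefore given with and without it.

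Nearly every gene stood higher with SKM than with injury alone on the deposited scale, and by nearly the same amount. The median log2 value over the panel was 10.85 ± 0.16 in the SKM group (SD, n = 9) and 10.33 ± 0.45 in the injury-alone group (SD, n = 8), a difference of 0.52 (two-sided exact permutation test over 24310 arrangements, p = 0.00601). The 9 SKM samples lay at 10.60 to 11.14 around a median of 10.82, and the injury-alone samples at 9.72 to 11.21 around a median of 10.22. All SKM samples stood above 6 of the 8 injury-alone samples, but the groups overlapped, since injury-alone replicate 9 was the highest sample of either group and the averaged replicates 6 and 7 stood at 10.71. Total counts did not differ in the same way, with means of 1347056 and 1332237 (p = 0.949 by the same exact permutation test). Immediate saline samples had a panel median of 10.95 ± 0.21 (SD, n = 9), 0.63 above injury alone (exact permutation test, p = 0.00317) and 0.10 above SKM (p = 0.261). The upward offset was therefore seen with both injections, and whether it reflects the RNA or the scaling was not tested.

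**Figure D1:**
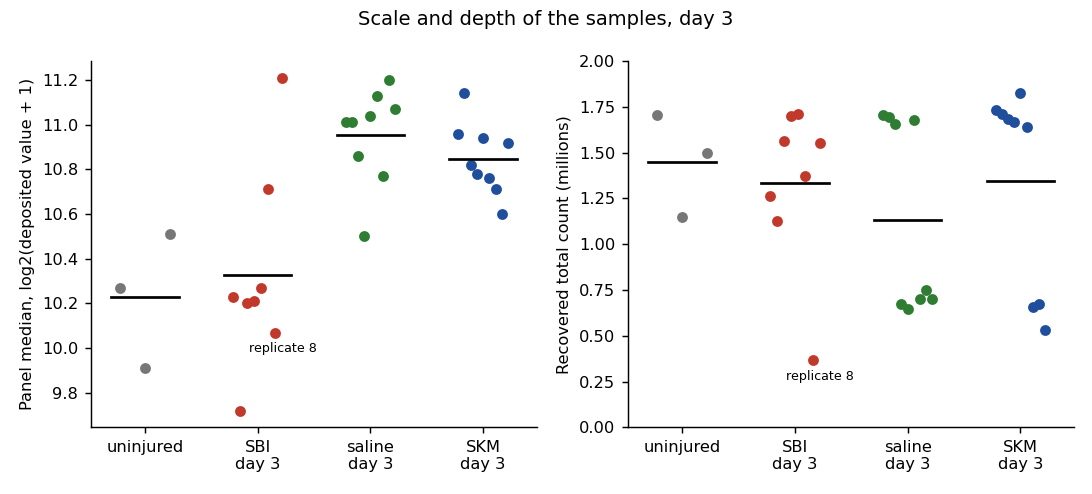
Left, the median log2(deposited value + 1) over the panel in each sample of the uninjured, SBI, saline and SKM groups at day 3; right, the recovered total count (unit 1000000). Points are samples, with the identical injury-alone pair averaged, and bars are group means; the SKM samples sit between 10.60 and 11.14 on the left, above 6 of the 8 injury-alone samples, and total counts of the groups overlap.

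Both scales were therefore used throughout, the deposited log2 value and the same value after subtraction of each sample's panel median, called the centred scale here. For every gene the fold change on the deposited scale exceeded that on the centred scale by 0.52, or 1.44-fold. On the deposited scale limma called 50 genes higher with SKM at a Benjamini-Hochberg adjusted p under 0.05, which is 37.3% of the panel, and 0 genes lower (0.00%). Fold changes were positive for 132 genes and negative for 2 (Il2 and Ptn), with a median of 0.54 and an interquartile range of 0.41 to 0.66. On the centred scale limma called 0 genes (0.00%), 2 had an unadjusted p under 0.05, and 73 fold changes were positive and 61 negative around a median of 0.01. Limma with voom weights on the recovered counts also called 0 genes on the centred scale, with 3 at an unadjusted p under 0.05. Array weights, which give less weight to samples far from their group, called 1 gene there, Ptn, as lower.

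The data also bound how large a difference relative to the panel could have gone unseen. An offset shared by the whole panel is removed by centring, so it is not bounded by these intervals. On the centred scale the 95% interval of a gene's fold change reached a median of 0.53 to either side, and for 92 genes the whole interval lay within 1 log2 unit of no difference. Fold changes between -0.5 and 0.5 were measured for 126 genes. Only Il23a, which encodes a subunit of interleukin 23, had a centred fold change beyond 1. The widest intervals belonged to Mmp12, the macrophage elastase, and Cxcl5, a neutrophil attractant. Cxcl5 had the largest SD of the panel in both groups, 3.49 with injury alone and 2.39 with SKM.

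**Figure D2:**
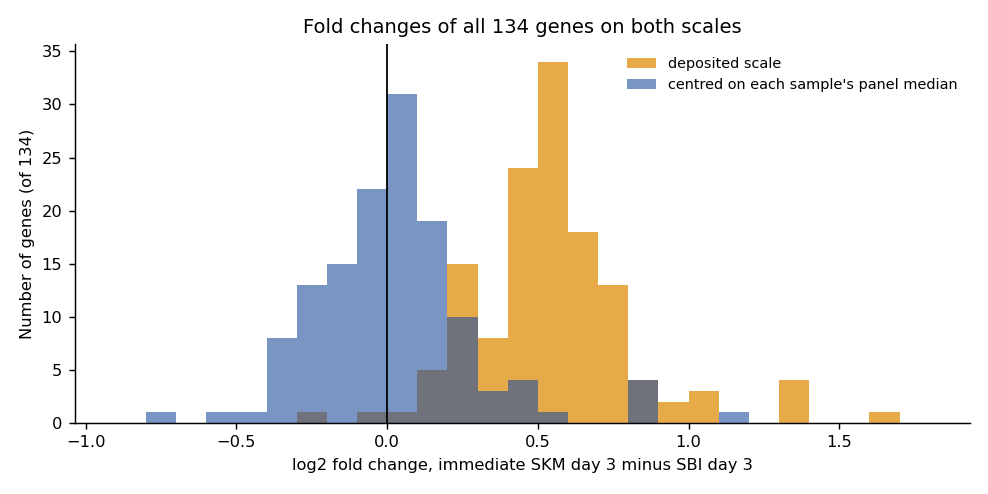
Number of genes (vertical axis) by log2 fold change of immediate SKM minus SBI at day 3 (horizontal axis), on the deposited scale and after centring each sample on its panel median. The deposited fold changes centre on 0.54 and the centred ones on 0.01, with the same shape.

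With all samples weighted equally, the genes of satellite cells and of new muscle were among those with the largest fold changes. All 5 myogenic regulators on the panel were called higher on the deposited scale, where 37.3% of the panel was called, and 0 on the centred scale. Their median fold change was 0.75 deposited and 0.23 centred, against panel medians of 0.54 and 0.01. Pax7, the transcription factor that marks satellite cells, had the largest value with all samples, while without injury-alone replicate 8 it was Myod1 (0.81 deposited, 0.32 centred). The centred log2 level of Pax7 ran from -3.59 to -2.62 around a median of -3.18 in the SKM samples and from -7.67 to -3.06 around a median of -3.39 in the injury-alone samples. The groups overlapped, and the lowest value was that of injury-alone replicate 8, which held 1 count of Pax7 where the other injury-alone samples held 99 to 187. The exact 95% Poisson interval of that count, which covers counting error only, was 0.0253 to 5.57 counts, or -9.92 to -5.43 on the centred scale. The fold change of Pax7 was 1.33 ± 0.28 (SE, limma adjusted p = 9.70e-05) on the deposited scale and 0.80 ± 0.27 (limma adjusted p = 0.557) on the centred scale. Without replicate 8 it was 0.76 ± 0.21 (limma adjusted p = 0.00249) and 0.28 ± 0.21 (limma adjusted p = 0.992). In a limma fit of these 2 groups alone, with all samples, the deposited call was lost (adjusted p = 0.0611).

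Myod1, which commits satellite cells to the muscle lineage, ran from -1.17 to 0.21 around a median of -0.45 on the centred scale with SKM. With injury alone it ran from -2.05 to -0.02 around a median of -0.67. The ranges overlapped, and the lowest injury-alone samples were replicate 9 and the averaged pair. Its fold change was 0.85 ± 0.27 (SE) deposited (limma adjusted p = 0.00709) and 0.33 centred. Myf5, an early myoblast factor, differed by 0.69 ± 0.22, Myog, which drives fusion and differentiation, by 0.76 ± 0.28 and Myf6, a factor of mature fibres, by 0.72 ± 0.25 on the deposited scale. After centring these 3 differences were 0.17, 0.23 and 0.20. With array weights the centred differences were 0.158 for Pax7, -0.115 for Myf5, -0.036 for Myod1, -0.006 for Myog and 0.324 for Myf6. With injury-alone replicates 1 to 6 only they were 0.224, 0.042, 0.120, 0.095 and 0.275 in the same order. Without injury-alone replicate 8, 4 of the 5 regulators were called on the deposited scale, and Myog had a limma adjusted p of 0.0561. The share of the whole panel called without that sample is not given here, so the count of 4 cannot be set against it.

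Myh3, the embryonic myosin of newly formed fibres, was higher by 1.35 ± 0.63 (SE) on the deposited scale without passing the test (limma adjusted p = 0.0760), and by 0.83 on the centred scale. Its centred level ran from 1.87 to 3.45 in the 9 SKM samples, a narrow band with an SD of 0.53. In the injury-alone samples it ran from -1.23 to 3.46, with an SD of 1.54. The lowest injury-alone samples were the averaged replicates 6 and 7 (-1.23) and replicate 9 (-0.04), while the other 6 injury-alone samples stood at 1.55 to 3.46. Uninjured samples lay at -3.08 to 0.18.

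Regulators of muscle mass gave a like picture. Fst, the secreted antagonist of myostatin and activin, was called higher on the deposited scale (0.86 ± 0.28, limma adjusted p = 0.0104) and stood 0.33 higher on the centred scale. Its centred level was -2.22 to -0.28 around a median of -1.59 with SKM and -2.21 to -1.12 around a median of -1.94 with injury alone. The groups overlapped, with SKM replicate 8 the highest and injury-alone replicate 2 the highest of its own group. Mstn, myostatin itself, an inhibitor of muscle growth, differed by 0.76 ± 0.50 deposited and 0.24 centred and was not called. The centred difference of Mstn was 0.60 without injury-alone replicate 8. Of 4 growth factors on the panel none was called, against 37.3% of the panel on the deposited scale. Their median was 0.39 deposited and -0.13 centred.

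Ptn, pleiotrophin, a heparin-binding growth factor, had the smallest unadjusted p among genes lower with SKM after centring. It ran from 0.20 to 1.41 around a median of 0.61 in the SKM samples. In the injury-alone samples it ran from 0.46 to 1.72 around a median of 1.13, and 5 SKM samples lay above the lowest injury-alone sample. The centred difference was -0.55 ± 0.23 (SE, 95% interval -1.01 to -0.09, unadjusted p = 0.0203, limma adjusted p = 0.989). On the deposited scale it was -0.02, with a limma adjusted p of 0.924. Uninjured muscle held -1.13 to -0.61, below both injured groups. Igf1, insulin-like growth factor 1, was 2.62 to 3.78 around a median of 2.98 with SKM and 2.90 to 3.61 around a median of 3.37 with injury alone, a centred difference of -0.28 ± 0.20. The hepatocyte growth factor gene Hgf and the fibroblast growth factor gene Fgf2 differed by 0.02 each on the centred scale.

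**Figure D3:**
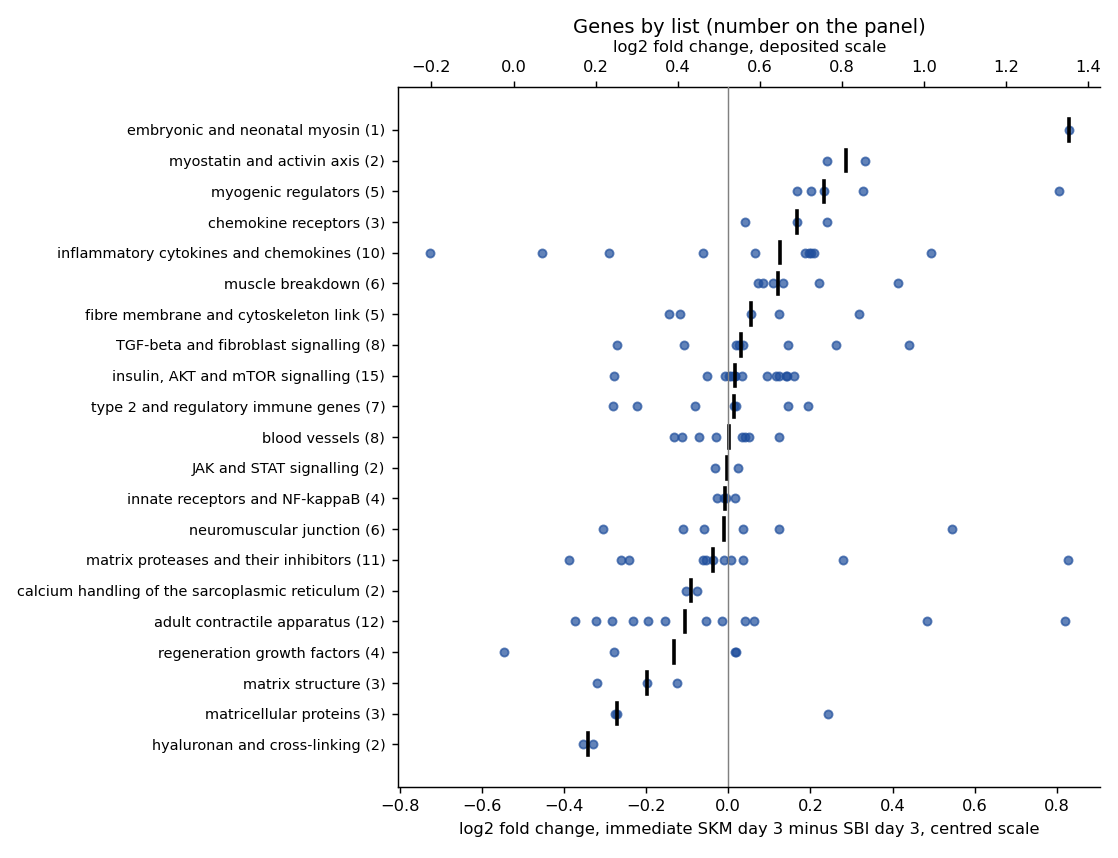
Log2 fold change of each gene (points) in 21 gene lists for immediate SKM minus SBI at day 3, on the centred scale below and the deposited scale above, which is the same axis shifted by 0.52; black bars are list medians, and the number of genes on the panel is in brackets. List medians spread between -0.34 for the hyaluronan genes (-0.20 without SKM replicate 9) and 0.83 for the embryonic myosin, around a panel median of 0.01.

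Genes of the mature contractile apparatus were spread on both sides of the panel. Of 12 such genes, 1 was called on the deposited scale (Ttn), against 37.3% of the panel, and 0 on the centred scale. Their median was 0.42 deposited and -0.10 centred, with 4 of 12 positive after centring. In the adult contractile apparatus list the centred median turned to 0.13 without injury-alone replicate 8 and to 0.18 without SKM replicate 8. Ttn, which encodes the giant elastic protein titin, ran from 2.31 to 5.27 around a median of 4.42 on the centred scale with SKM. With injury alone it ran from 1.19 to 5.24 around a median of 3.18. The highest samples of both groups coincided, and the lowest belonged to injury-alone replicates 1 and 2. Its fold change was 1.34 ± 0.54 (SE, limma adjusted p = 0.0392) deposited and 0.82 centred. The deposited call was lost in the limma fits without injury-alone replicate 1, 2 or 8 or without SKM replicate 1, 2, 3, 4, 5 or 9, one at a time (adjusted p between 0.0504 and 0.174).

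Myh1, a fast myosin heavy chain, was next at 1.01 ± 0.42 (limma adjusted p = 0.0512), and Acta1, skeletal alpha-actin, differed by 0.29 ± 0.40. Acta1 set injury-alone replicate 8 apart, at 7.80 on the centred scale against 3.59 to 5.97 in the other injury-alone samples and 3.90 to 6.30 with SKM. Uninjured samples held 7.78 to 8.37. Tcap, the titin cap protein of the Z disc, was lowest in the list at 0.15 deposited and -0.37 centred. Without injury-alone replicate 8 Tcap differed by -0.07 centred, and Myh7 was lowest at -0.14. When only samples with a total over 1000000 counts were kept (6 SKM and 7 injury-alone), an alternative chosen after the data were seen, limma called 10 of the 12 genes of the adult contractile apparatus higher on the deposited scale. Their median was then 1.07 deposited and 0.54 centred, and 0 were called after centring. The share of the whole panel called in that fit is not given here, so the count of 10 cannot be set against it. Myh1 had a centred fold change of 1.18 ± 0.41 in that fit (unadjusted p = 0.0054, limma adjusted p = 0.26). The 3 SKM samples under 1000000 counts were replicates 7, 8 and 9, of which 7 and 8 had the lowest Ttn and Myh1 of their group.

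The genes that link the fibre to its membrane and surroundings were called on the deposited scale in 4 of 5 cases, against 37.3% of the panel, and 0 after centring. Dmd, dystrophin, which ties the cytoskeleton to the membrane, ran from -0.87 to 1.20 around a median of 0.38 on the centred scale with SKM. With injury alone it ran from -0.90 to 0.99 around a median of -0.08. The groups covered the same span. Its fold change was 0.84 ± 0.25 (SE, limma adjusted p = 0.00490) deposited and 0.32 centred. Utrn, its paralogue utrophin, differed by 0.65 ± 0.16, and the integrin subunit genes Itgb1 and Itga1 by 0.58 ± 0.10 and 0.41 ± 0.14. Des, desmin, the intermediate filament of muscle, differed by 0.38 and was not called.

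Growth and protein synthesis signalling made up the longest list. Of its 15 genes of insulin, AKT and mTOR signalling, 13 were called on the deposited scale, against 37.3% of the panel, with a median of 0.54 beside 0.54 for the panel, and 0 on the centred scale, with a median of 0.02. Akt1, a kinase of insulin signalling, varied little between samples, at 1.80 to 2.23 with SKM and 1.60 to 2.43 with injury alone on the centred scale. Its deposited difference of 0.54 ± 0.09 (limma adjusted p = 7.04e-07) was close to the offset of the whole panel, and its centred difference was 0.02. The largest in the list was Rps6kb1, the kinase that phosphorylates ribosomal protein S6, at 0.68 deposited and 0.16 centred. Among 6 genes of muscle breakdown, 5 were called on the deposited scale, against 37.3% of the panel, and 0 after centring, with medians of 0.64 and 0.12. Prkaa1, a catalytic subunit of the energy sensor AMPK, had the smallest p of the panel (0.60 ± 0.09, limma adjusted p = 9.89e-08) and differed by 0.07 after centring. The names of the Prkaa1, Ikbkb, Dcn and Ccn2 probes are less sure than the others, since they were not the best match in both directions.

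Trim63, the muscle ubiquitin ligase MuRF1, stood furthest out in the breakdown list. It ran from 0.83 to 3.26 around a median of 2.48 on the centred scale with SKM. With injury alone it ran from 0.85 to 2.94 around a median of 2.04. The groups overlapped over nearly their whole range, and SKM replicate 8 and the averaged injury-alone pair were lowest. The difference was 0.94 ± 0.31 (SE, limma adjusted p = 0.0104) deposited and 0.41 centred. Fbxo32, the other atrophy ligase, differed by 0.74 and 0.22 and was not called.

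Genes of the nerve-muscle junction held the gene that separated the groups best on the deposited scale. Musk, the receptor kinase that organises the junction, was the only gene on the panel whose lowest SKM value (8.43) lay above its highest injury-alone value (8.28). Its fold change there was 1.07 ± 0.38 (SE, limma adjusted p = 0.0176). After centring the SKM samples ran from -2.57 to -1.52 around a median of -2.24. The injury-alone samples ran from -3.89 to -1.92 around a median of -2.32, and the groups overlapped. The low injury-alone samples were the averaged pair, replicate 9 and replicate 8, and the centred difference was 0.54 (95% interval -0.22 to 1.31). Uninjured muscle held less Musk, at -4.44 to -3.91. Of the 6 junction genes 4 were called on the deposited scale, against 37.3% of the panel, and 0 after centring. Agrn, which encodes agrin, differed by 0.56 and 0.04, and Nrg1, neuregulin 1, by 0.22 and -0.30.

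**Figure D4:**
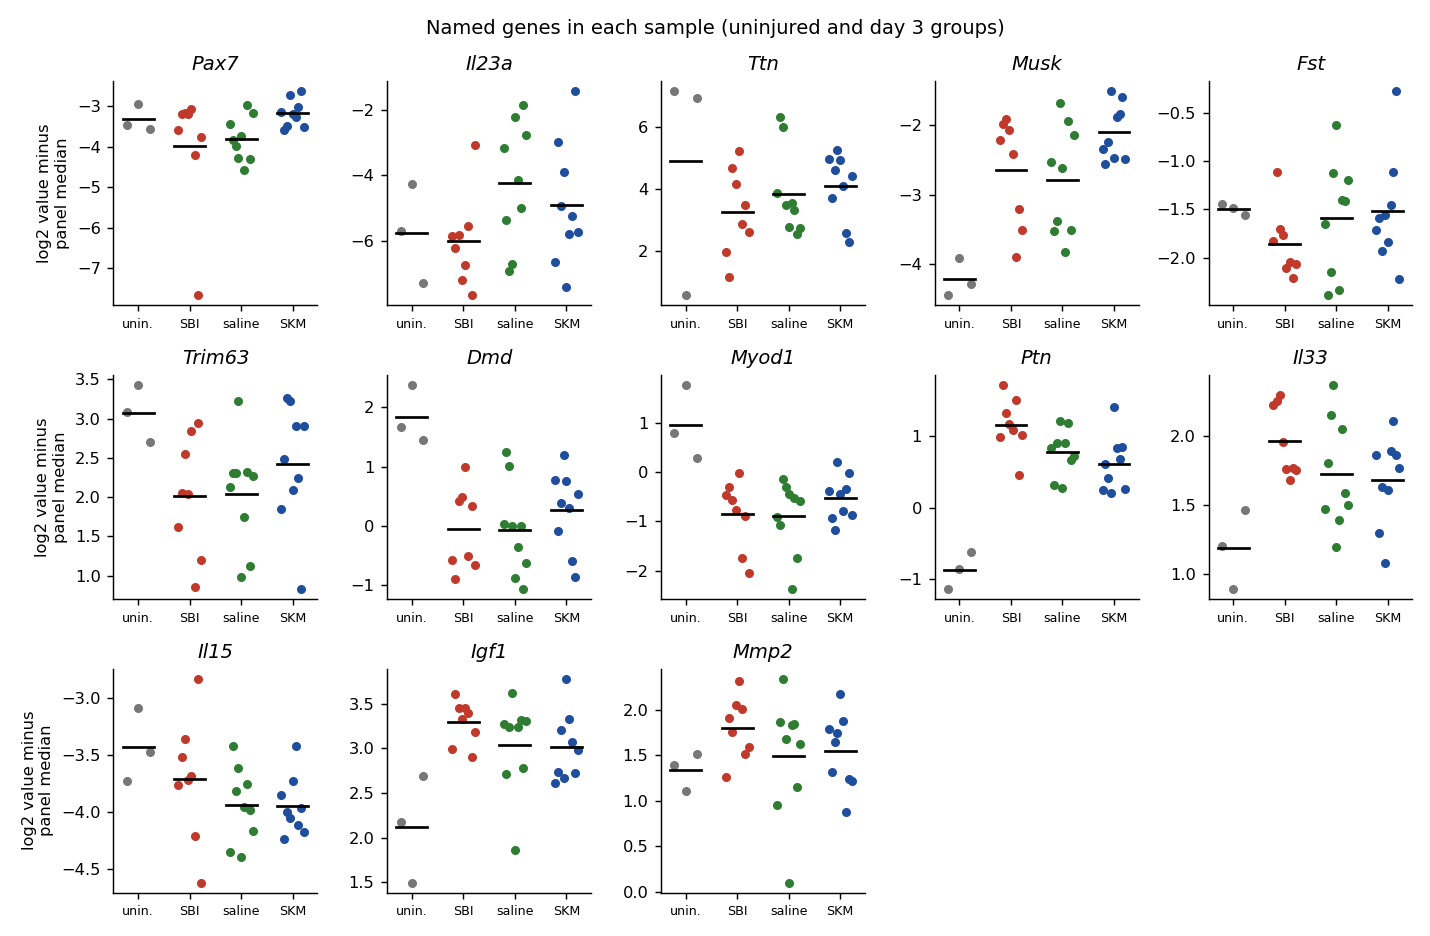
Log2 value minus the sample's panel median for 13 genes in each uninjured (3), SBI (8), saline (9) and SKM (9) sample at day 3; points are samples and bars are group means. Pax7 in injury-alone replicate 8 stands at -7.67, below all other samples, and the SBI and SKM points overlap in all 13 panels.

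Genes of inflammation varied widely between samples of the same group. Of 10 cytokine and chemokine genes on the panel, 0 were called on either scale, against 37.3% of the panel on the deposited scale. Their median was 0.65 deposited and 0.13 centred, and for the inflammatory cytokines and chemokines the centred median was -0.09 without injury-alone replicate 8 and -0.04 without SKM replicate 8. Nos2, the inducible nitric oxide synthase of activated macrophages and neutrophils, ran from -3.35 to 1.54 with SKM and from -4.14 to 2.85 with injury alone on the centred scale. Injury-alone replicate 9 and the averaged pair held 2.85 and 2.21, while the other 6 samples of that group lay at -1.81 or below. Its centred difference was 0.49 ± 1.01 (SE, 95% interval -1.51 to 2.49), and 0.11 without injury-alone replicate 8. Il1b, interleukin 1 beta, ran from -3.49 to 0.34 and from -3.31 to 1.32, with the same injury-alone samples highest. The same replicate 9 and averaged pair were the lowest in Myh3, Musk, Myod1 and Acta1, and the part of this division within the group in the results was not tested.

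Il2 was the lowest gene of the panel, at -0.20 deposited and -0.73 centred, and SKM replicate 9 held 0 counts of it. Without that sample the centred difference of Il2 was -0.20 ± 0.63. Il6, interleukin 6, differed by -0.45 on the centred scale and 0.07 on the deposited scale, and by -0.26 and 0.25 without SKM replicate 9. Il23a, which stands in none of the 21 lists, was called higher on the deposited scale at 1.65 ± 0.66 (SE, limma adjusted p = 0.0392) and had a centred difference of 1.12 (95% interval -0.16 to 2.40). It ran from -7.42 to -1.42 around a median of -5.25 with SKM and from -7.67 to -3.08 around a median of -6.04 with injury alone. The high SKM samples were replicates 8 and 2, and the low injury-alone value was again 1 count in replicate 8. Without that replicate the deposited call was lost (1.38 ± 0.68, limma adjusted p = 0.0994), and so it was in the limma fits without injury-alone replicate 1, 2, 4 or 5 or SKM replicate 2, 4 or 8 (adjusted p up to 0.111).

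Of the other immune lists, 3 held 14 genes. Of these 14, 2 were called on the deposited scale, against 37.3% of the panel, namely Nfkb1 and Ikbkb of the NF-kappaB pathway. After centring 0 were called, and the list medians were 0.17 for 3 chemokine receptor genes, -0.01 for 4 innate signalling genes and 0.01 for 7 type 2 and regulatory genes. For the chemokine receptors the centred median was -0.02 without injury-alone replicate 8 and -0.09 without SKM replicate 8. Il33, an alarmin released by damaged tissue, ran from 1.08 to 2.10 around a median of 1.77 with SKM. With injury alone it ran from 1.68 to 2.29 around a median of 1.86. The lowest values of both groups together belonged to SKM replicates 4, 2, 5 and 3, and the centred difference was -0.28 ± 0.15 (SE, unadjusted p = 0.0612, limma adjusted p = 0.989). Il15, a cytokine that muscle fibres also secrete, differed by -0.24 ± 0.14 on the centred scale, from -4.24 to -3.42 around a median of -4.00 with SKM and from -4.62 to -2.83 around a median of -3.70 with injury alone. Both genes were higher with SKM on the deposited scale, by 0.24 and 0.29, without a call. Without injury-alone replicate 8 the centred differences of Il33 and Il15 were -0.31 and -0.11.

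Genes of matrix structure, matricellular proteins and hyaluronan synthesis had list medians below 0 after centring. None was called on either scale, against 37.3% of the panel on the deposited scale. The 3 structural genes stood at a median of 0.32 deposited and -0.20 centred, namely Col1a1 and Col3a1, which encode fibrillar collagens, at -0.32 ± 0.34 and -0.20 ± 0.26, and Dcn, the small proteoglycan decorin, at -0.13 ± 0.16. The 3 matricellular genes had a median of 0.25 deposited and -0.27 centred, which were the values of Ccn2, a probe whose name is less sure, and the hyaluronan synthase genes Has1 and Has2 differed by -0.33 and -0.35 on the centred scale. Without SKM replicate 9 the values of Has1 and Has2 were -0.19 and -0.20, and with array weights they were -0.69 and -0.83 (limma). Of 11 genes of matrix proteases and their inhibitors, 1 was called on the deposited scale, against 37.3% of the panel. It was Timp2 (0.56 ± 0.15), an inhibitor that differed by 0.04 after centring. Timp1, another of the 4 inhibitor genes in the list, differed by 0.14 deposited and -0.39 centred. Mmp2, a gelatinase of fibroblasts, ran from 0.87 to 2.18 around a median of 1.65 with SKM and from 1.26 to 2.31 around a median of 1.84 with injury alone, a centred difference of -0.26 ± 0.20. At the other end stood Mmp8, the collagenase of neutrophils, at 0.83 centred. It was at 0 counts in injury-alone replicate 8, and without that sample its centred difference was 0.18. For Col1a1, Col3a1, Dcn, Has1 and Has2 the centred direction was opposite to that on the deposited scale, where each stood higher by 0.17 to 0.40.

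Genes of TGF-beta and fibroblast signalling were called in 5 of 8 cases and those of blood vessels in 6 of 8 on the deposited scale, where 37.3% of the panel was called and its offset was 0.52, and 0 in either list after centring. Their centred medians were 0.03 and 0.00. Tgfbr1, a receptor of TGF-beta, and the signal transducer genes Smad3 and Smad4 differed by 0.67, 0.78 and 0.56 deposited. Smad2 stood highest at 0.96 ± 0.49 without a call, and its centred difference of 0.44 turned to -0.08 without injury-alone replicate 8, which held 0 counts of it. Among the vessel genes Kdr, the main receptor for vascular endothelial growth factor, differed by 0.65 deposited and 0.12 centred. Vegfa, its ligand, differed by 0.56 and 0.04. Without injury-alone replicate 8 the centred difference of Kdr turned to -0.06. Of the 19 genes in none of the lists 4 were called on the deposited scale, against 37.3% of the panel. They were Il23a, Dvl1, Gphn and Tnfrsf1a, and 0 were called after centring.

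The cell type markers on the panel were checked in both groups. Summed values of 8 muscle fibre markers, relative to the panel median, ran from 5.23 to 8.00 (log2) with SKM and from 5.36 to 8.87 with injury alone, against 9.83 to 10.34 in uninjured muscle. Satellite cell and myoblast markers (4 genes) had medians of 2.42 with SKM and 2.41 with injury alone. Macrophage markers (3 of 11 on the panel) had medians of 1.72 and 1.77 and fibroblast markers (4 of 5) 7.76 and 8.22. Neutrophil markers (Cxcr2 and Mmp8) had medians of -3.58 and -3.38, with ranges of -4.93 to -0.83 and -9.80 to -0.76, and both were at 0 counts in injury-alone replicate 8 only. Lymphocyte markers (3 of 10) had medians of -3.89 and -4.24, with Tbx21 at 0 counts in 1 sample of each group. Endothelial markers (Kdr and Tie1) had medians of 0.42 with SKM and 0.36 with injury alone. No probe was matched to a marker of Schwann cells or of adipocytes. The adipocyte marker Pparg was named in the authors' workbook but was left without a probe. The part of cell content in the differences was not tested.

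The saline group gives the same contrast for an injection without hydrogel. Both comparisons use the same 8 injury-alone samples, so their values are given side by side only. With saline, limma called 60 genes higher than injury alone on the deposited scale (44.8%) and 1 on the centred scale (0.746%), the neutrophil collagenase gene Mmp8 at 2.35 ± 0.63 (SE, limma adjusted p = 0.0450). The call of Mmp8 was lost in the limma fits without injury-alone replicate 1, 3, 4, 5 or 8 or saline replicate 1, 5, 6, 8 or 9, one at a time. Mmp8 differed by 0.83 between SKM and injury alone, and without injury-alone replicate 8 the differences were 1.70 with saline and 0.18 with SKM. Nos2 differed from injury alone by 2.46 with saline and by 0.49 with SKM on the centred scale. The macrophage chemokine gene Ccl3 differed by 1.62 and 0.19, and Myh3 by -0.78 and 0.83. Without injury-alone replicate 8 the values were 2.07 and 0.11 for Nos2, 1.285 and -0.145 for Ccl3, and -0.65 and 0.96 for Myh3. Pax7 differed by 0.17 with saline and by 0.80 with SKM, but without injury-alone replicate 8 by -0.36 and 0.28, so that the direction with saline turned. Il23a differed on the centred scale by 1.79 with saline and by 1.12 with SKM, and by 1.55 and 0.89 without that replicate. Ttn differed by 0.57 and 0.82, Fst by 0.27 and 0.33, Ptn by -0.38 and -0.55, Igf1 by -0.25 and -0.28, and Mmp2 by -0.32 and -0.26. Musk (-0.14 and 0.54), Dmd (-0.02 and 0.32) and Myod1 (-0.05 and 0.33) had opposite signs.

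SKM and saline were then compared with each other. Limma called 0 genes on either scale (0.00%), with 8 genes at an unadjusted p under 0.05 on the deposited scale and 10 on the centred scale. Voom weights gave 0 calls on the deposited and 2 on the centred scale, and array weights gave 27 and 20. On the centred scale the genes with the lowest p were Myf5 (0.59 ± 0.21, SE, unadjusted p = 0.00742), Myh3 (1.61 ± 0.61, unadjusted p = 0.00921) and Mmp8 (-1.52 ± 0.61, unadjusted p = 0.0150), each at a limma adjusted p of 0.419. On the deposited scale the smallest belonged to Vegfa at -0.55 ± 0.21, Mmp8 and Myh3, each at a limma adjusted p of 0.540. The saline samples also varied widely in Nos2, which lay at 2.22 to 5.49 on the centred scale in 5 of them and at -3.96 to -0.76 in the other 4.

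**Figure D5:**
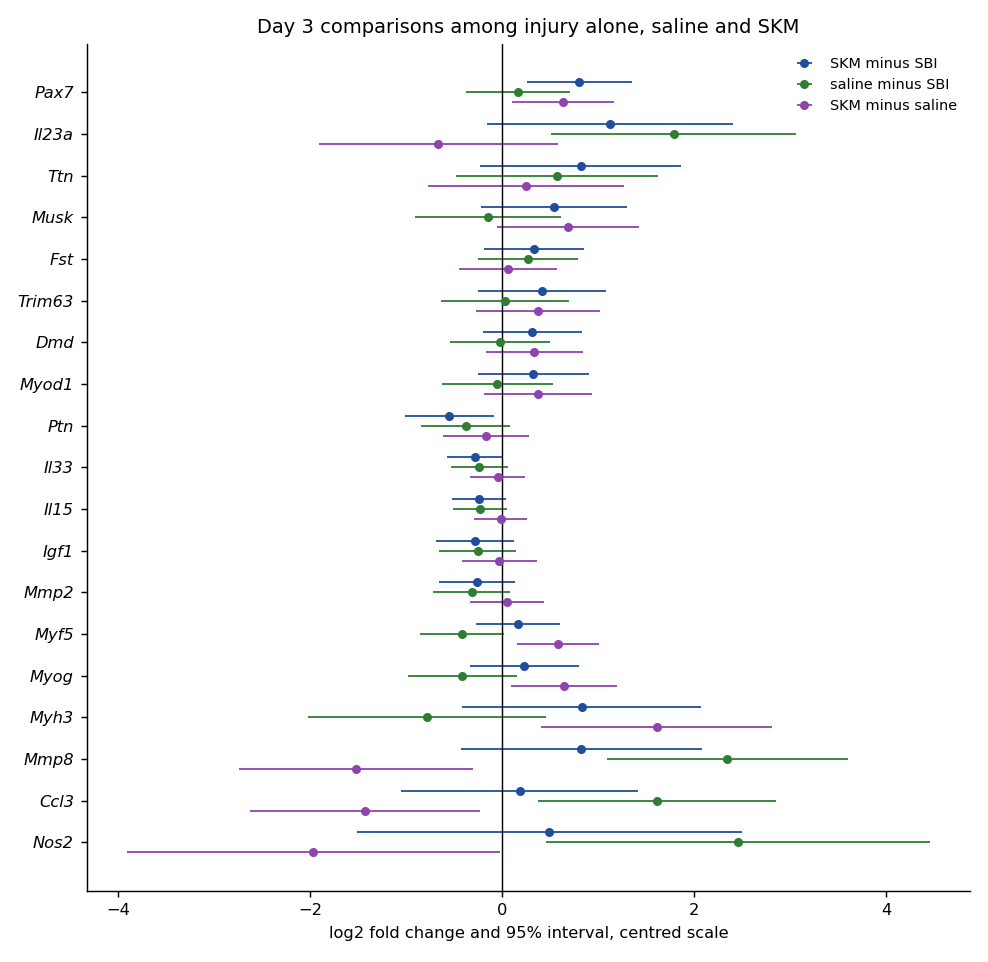
Centred log2 fold changes with 95% intervals at day 3 for 19 genes in 3 comparisons, SKM minus SBI, saline minus SBI and SKM minus saline, which share samples. Intervals of SKM minus SBI cover 0 for all genes but Pax7 and Ptn. Without injury-alone replicate 8 the Pax7 interval was -0.14 to 0.70, which covers 0. Mmp8 in saline minus SBI (2.35) is the only call after adjustment over the panel.

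The difference between SKM and injury alone was tested against the same difference at day 7, when the groups held 8 SKM samples and 6 injury-alone samples after averaging 2 identical pairs. Limma called 0 genes (0.00%) for the change of the difference on either scale, with 13 genes at an unadjusted p under 0.05 on the deposited scale and 2 on the centred scale. The median change was -0.35 deposited and 0.01 centred. On the centred scale Pax7 (-0.95 ± 0.41), Il23a (-2.18 ± 0.97) and Nos2 (-2.88 ± 1.51) had the smallest p-values, each at a limma adjusted p of 0.998. Without day 3 injury-alone replicate 8 the change of Pax7 was -0.42 ± 0.31 centred (limma adjusted p = 0.980) and -0.75 ± 0.31 deposited (limma adjusted p = 0.381). The smallest on the deposited scale were those of Pax7, Tie1 and Myf5, each at 0.183. At day 7 Pax7 stood at -3.77 to -2.57 on the centred scale with SKM and at -3.66 to -2.34 with injury alone. Without day 3 injury-alone replicate 9 limma called 6 genes on the deposited scale, and without the averaged day 7 replicates 6 and 8 it called 6.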

How the data were processed

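Total RNA of pubocaudalis muscle, 50 to 100 ng per sample, was counted on a custom nCounter panel according to the labels' protocols. The authors deposited a table of the panel's probes by 127 samples on a linear signal scale. The sources used here do not name its software, control probes or scaling genes. Values were whole multiples of 1 step per sample within 0.05, for all 16829 values above the floor. The 189 values at the floor of 0.1 stand for a count of 0. Names came from the authors' deposited workbook of log2 fold changes, matched by value in 8 comparisons. Every probe was named (median difference 0.0049), and 130 matched best both ways. Ccn2, Dcn, Ikbkb and Prkaa1 did not. The workbook names Ppard and Pparg were left without a probe. The workbook's block headed SKM against SBI at day 3 differed from SKM minus saline by a median of 0.004 and from SKM minus SBI by 1.26, and was not used here.

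Samples were grouped by label. Identical samples were averaged, which left 124. Log2(value + 1) was fitted for all 18 groups together with limma 3.58.1 in R 4.3.3 (lmFit, eBayes) with Benjamini-Hochberg adjustment over the whole panel and a threshold of 0.05, on the deposited scale and after centring on each sample's panel median. The log2(value + 1) scale understates changes of low genes. Single values per sample were compared by exact permutation tests in Python 3.11.15. The fit was tested on simulated data. Detailed values are given for 8 genes higher (called on 1 scale, ordered by adjusted p on the other, ties by unadjusted p) and 5 lower (smallest p on the centred scale, none called), and for list extremes and members, markers and the 3 smallest p-values of other comparisons. Members, lists and tests were chosen with earlier results of these data known. Alternatives covered the samples fitted, pseudocount, filter, centring, weights, identical samples, replicate block and each sample left out. One gene list is not reported here.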

Additional observations from a re-analysis of the deposited data

Results flagged for a closer look

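The measures of SKM and injury-alone samples at day 3 were searched for a sample far from the others of its group by Dixon's test, in 58 sets of values, of which 9 were found; chance gives about 1 in 20.

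Injury-alone replicate 8 accounted for 4 of them. Its total of 366294 counts, its value of 1 count of 4.281, and Pax7 at -7.67 on the centred scale and 2.40 on the deposited scale each lay far from the other 7 samples. In the same group Il23a was far above the rest in replicate 9 (-3.08 centred), and so was Fst in replicate 2 (-1.12 centred). In the SKM group, replicate 9 had a value of 1 count of 3.223, replicate 8 had a low Trim63 (11.43 deposited), and replicate 4 had a low Il33 (11.86 deposited). The causes were not tested.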

How the results depend on the processing

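The 50 deposited calls between SKM and injury alone became 38 to 85 under the other settings, all of them higher, except that centring on the panel mean gave 0 and the fit with replicate number as a block gave 0, with 49 genes at an unadjusted p under 0.05. Array weights gave 85. Leaving out each sample gave 42 to 64 calls, and the panel median differed by 0.44 to 0.65. Replicate numbers are shared in the labels, but same-numbered samples correlated at -0.62 to 0.69 over genes, over 0.1 in 5 of 8 pairs, and 1 of 8 matched its own number best, so they were not taken as pairs. On the centred scale array weights gave 1 call and all other settings 0, each left-out sample included (0 to 0).

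Saline minus injury alone gave 60 deposited calls, but 0 under centring on the panel mean and 0 under the replicate block. Its single centred call became 9 with array weights and 0 with the groups compared alone, the 4 early groups, log2(value + 10), centring on the mean, identical samples kept apart, SBI replicates 1 to 6, the replicate block, voom weights and totals over 1000000, and 0 to 1 with each sample left out. SKM minus saline gave 27 and 20 calls (deposited, centred) with array weights and 2 with voom weights on the centred scale. The day 7 change gave 32 calls with array weights and 7 with SBI day 3 replicates 1 to 6, all lower and deposited, and 0 to 6 with each sample left out.

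Of the 13 genes followed, centring on the panel mean turned Il33 (-0.31), Il15 (-0.26), Igf1 (-0.30) and Mmp2 (-0.28, from 0.26 deposited) to lower. The near-zero deposited value of Ptn turned to 0.039 with array weights, 0.071 with the depth covariate and 0.008 with the factor of replicate 6 alone, and lay at -0.161 to 0.083 without single samples (0.081 without the identical pair). With the 2 groups fitted alone, the deposited limma calls of Pax7, Il23a, Ttn and Dmd were lost (adjusted p = 0.0611, 0.125, 0.0864 and 0.0695), and with array weights that of Musk (0.0754). Under the replicate block and under centring on the panel mean all 8 were lost. Myod1 centred turned to -0.036 with array weights. The causes were not tested. Count models planned for recovered counts were not run, since the deposited unit is a signal; voom weights were added in their place after seeing the data, as were the depth settings and the pair's factors. Depth limits genes near 0 counts.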
